A study of Mus musculus with 12 samples.

Results

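The transcripts of 10 genes that mark microglia, the resident macrophages of the brain, were examined in the brains of newborn mice with and without the protein kinase KIS. The members were found by their symbols (Csf1r, Aif1, Cx3cr1, P2ry12, Itgam, C1qa, C1qb, C1qc, Trem2 and Tyrobp), and all 10 were among the 17550 gene symbols of the deposited table. They carry 107 of the 221417 main probesets with a symbol, a probeset being the group of short probes that covers an exon or a part of one. Total RNA came from the whole brains of 12 newborn females, 6 wildtype (KIS +/+) and 6 KIS-ko (KIS -/-), with 1 wildtype and 1 KIS-ko littermate from each of 6 litters. Each brain was hybridized to 1 Affymetrix Mouse Exon 1.0 ST array. The knockout is not restricted to a cell type, had been backcrossed to C57BL6/N and was genotyped from the tail, so that the data hold no microglia-specific loss of KIS. Whole tissue was measured, and in such RNA fewer microglia and less RNA per cell cannot be told apart.

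Microglia descend from yolk sac progenitors that enter the brain during embryonic life, and around birth many of them still have the rounded, amoeboid shape of phagocytes. Their survival depends on the receptor Csf1r, their contact with neurons runs through receptors such as Cx3cr1 and P2ry12, and they are the main source of the complement protein C1q, which tags synapses for removal. They are a small minority of brain cells, so their transcripts are diluted in whole brain RNA.

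The genes differ in their regulatory starts as well as in their roles. For 7 members RefSeq (assembly GRCm38.p6) gave the 300 bases from 250 before to 50 after the transcription start: Aif1, C1qb, C1qc, Cx3cr1, Itgam, P2ry12 and Trem2. These windows were searched on both strands for GAGGAA, the core recognized by PU.1, the transcription factor (gene Spi1) on which the macrophage lineage depends, which reads TTCCTC when it lies on the opposite strand. The core was present in 5 of the 7 windows and in 28.3% of the 32851 promoters of the whole table. The shorter GGAA of the ETS family, which is contained in GAGGAA, was present in all 7 members and in 96% of all promoters. A match is a description of the letters and not a measured site. The windows of C1qb and C1qc are shown because these were the members with the clearest signal, and those of Aif1 and Itgam because their signals lay closest to the middle of the intron controls although both hold the core. Sequences run 5′ to 3′ on the strand of the gene, and capitals mark GAGGAA or TTCCTC. The C1qb window is chr4:136886151-136886450 (minus strand), with the core starting 30 bases before the start. The C1qc window is chr4:136892865-136893164 (minus strand), with TTCCTC 193 bases before it. The Aif1 window is chr17:35176003-35176302 (minus strand), with TTCCTC 7 bases before it. The Itgam window is chr7:128062390-128062689 (plus strand), with 3 matches at positions -84, -15 and 32.
C1qb: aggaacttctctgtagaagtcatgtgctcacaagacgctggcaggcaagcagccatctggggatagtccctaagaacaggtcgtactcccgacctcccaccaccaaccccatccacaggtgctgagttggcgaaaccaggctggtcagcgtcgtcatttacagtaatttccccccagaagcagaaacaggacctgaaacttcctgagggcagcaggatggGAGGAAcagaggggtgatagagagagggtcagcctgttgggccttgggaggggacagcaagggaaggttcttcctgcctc
C1qc: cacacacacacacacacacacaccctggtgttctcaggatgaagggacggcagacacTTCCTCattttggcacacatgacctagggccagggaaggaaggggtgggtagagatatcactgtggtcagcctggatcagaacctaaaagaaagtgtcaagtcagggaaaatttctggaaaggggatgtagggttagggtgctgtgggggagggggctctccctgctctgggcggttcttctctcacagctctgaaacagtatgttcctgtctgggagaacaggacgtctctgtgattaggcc
Aif1: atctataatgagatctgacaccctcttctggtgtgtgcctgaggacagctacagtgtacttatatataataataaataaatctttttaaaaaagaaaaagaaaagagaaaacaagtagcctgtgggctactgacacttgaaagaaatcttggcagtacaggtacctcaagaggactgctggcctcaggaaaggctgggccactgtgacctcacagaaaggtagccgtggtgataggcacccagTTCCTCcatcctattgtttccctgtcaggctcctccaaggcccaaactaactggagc
Itgam: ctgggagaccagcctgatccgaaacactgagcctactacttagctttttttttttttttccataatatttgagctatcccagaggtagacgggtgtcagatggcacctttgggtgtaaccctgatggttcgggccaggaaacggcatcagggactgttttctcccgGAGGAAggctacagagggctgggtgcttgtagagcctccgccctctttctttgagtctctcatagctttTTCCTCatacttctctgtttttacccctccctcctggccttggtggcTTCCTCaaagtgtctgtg
Trem2 held 1 match, 40 bases before its start on the opposite strand, and Cx3cr1 and P2ry12 held none. The 7 windows were also poor in CG dinucleotides, with 1 to 6 each against a median of 7 over all promoters, although 47.9% of all promoters had 6 or fewer.

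Before any comparison, the labels were checked on Uhmk1, the gene of KIS. Its gene value, the mean of log2(PLIER signal + 16) over its probesets, ran from 10.89 to 11.07 in the wildtype brains and from 8.62 to 8.98 in the KIS-ko brains, so the groups were fully apart. The difference was -2.11 (SE 0.068, n = 6 pairs), lower in 6 of 6 litters. The median signal of the arrays, over all probesets of the deposited table and so with the controls, lay between 460 and 526. The log2 values of any pair of arrays correlated between 0.988 and 0.996, with no array standing apart.

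The first question was which microglial transcripts rise above the signal of sequence that should be absent from mature mRNA. The arrays carry 5222 probesets against introns of control genes, whose mean PLIER signal over the 12 arrays had a median of 114 and a 95th percentile of 713. Introns can carry some pre-mRNA, and controls of different sequence hybridize differently, so the 95th percentile is a demanding limit. Of the 107 member probesets, 15 (14.0%) lay above it, against 41.4% of all main probesets. In all, 82 (76.6%) lay above the median control, against 81.9% of all main probesets. No test was run on these shares, and signals of different probesets were set only against the controls and not against each other.

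The complement genes C1qb and C1qc were the only members with most of their probesets above the limit, although for C1qb this holds only with a probeset open to cross-hybridization. C1qb and C1qc encode the B and C chains of C1q, which with the A chain form the recognition part of the classical complement pathway. For C1qb, 3 of 5 probesets lay above the limit, all 3 on each of the 12 arrays, with means of 1218, 1413 and 2604, of which that at 1413 is marked as open to cross-hybridization, so that 2 of 4 probesets matching 1 place were above it. The remaining probesets of C1qb fell just short of the limit at 649 and 703. For C1qc, 3 of 5 probesets lay above it, of which 1 on all 12 arrays (mean 1975), while the other 2 that passed had means of 729 and 755, close to the limit. In contrast C1qa, which encodes the A chain and lies in the same gene cluster on chromosome 4, had 0 of 3 probesets above the limit and 1 above the 90th percentile of controls (443), with means of 194, 441 and 465. In the table's positions, whose genome build is not named in the sources used here, C1qb, C1qc and C1qa occupy chr4:136436065-136442054, chr4:136445775-136448808 and chr4:136451884-136453719.

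Csf1r, the receptor for the growth factors Csf1 and Il34 on which microglia depend, was detected by part of its length. Of its 30 probesets, 8 exceeded the limit, 5 of them on all 12 arrays, and 17 exceeded the 90th percentile. Its brightest probeset, with a mean of 3044, is marked in the table as open to cross-hybridization, whereas the other 7 above the limit are marked as matching 1 place and lay between 735 and 1425. Tyrobp, the signalling adaptor of Trem2 and of other myeloid receptors, had 1 of 7 probesets above the limit, at 722, which exceeded the controls of its own array on 6 of 12 arrays.

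The other receptors stayed below the limit but mostly above the middle of the controls. Cx3cr1, the receptor of the neuronal chemokine fractalkine (Cx3cl1), had 0 of 3 above it, with means of 602, 490 and 135. P2ry12, a purinergic receptor through which microglial processes sense nucleotides, had 0 of 7, with its highest probeset at 572 and its lowest at 13.2. Trem2, a receptor for lipids and lipoproteins such as Apoe, had 0 of 7, with a highest mean of 669 and all 7 above the median control. The general macrophage markers lay closest to the middle of the controls. Aif1 (the Iba1 of immunostaining) reached at most 213 over 9 probesets, 5 of them above the median control. Itgam (CD11b, the alpha chain of complement receptor 3) reached at most 372 over 31 probesets, 15 of them above the median control.

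**Figure D1:**
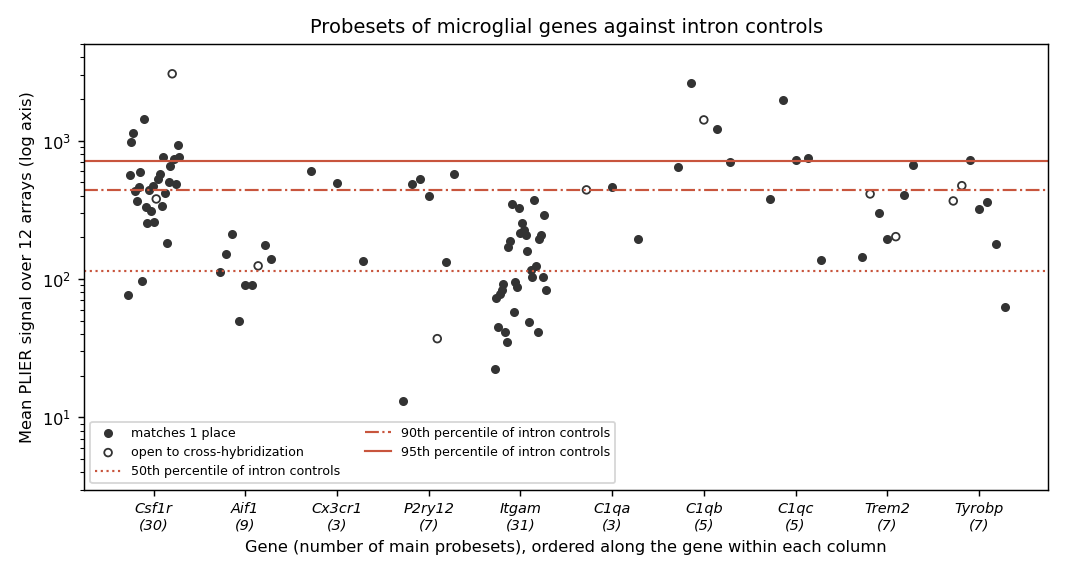
Mean PLIER signal over the 12 arrays (log axis) of each of the 107 main probesets, in 1 column for each gene, with the median, the 90th and the 95th percentile of 5222 intron controls as horizontal lines. Filled points match 1 place and open points are open to cross-hybridization, and points above the uppermost line are seen in Csf1r (8), C1qb (3), C1qc (3) and Tyrobp (1).

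The second question was whether the members differed between KIS-ko brains and wildtype littermates. No member passed the test: in limma, fitted with litter as a blocking term and adjusted by Benjamini-Hochberg for 17279 genes, 0 of 10 members had an adjusted p under 0.05 and 0 of 10 an unadjusted p under 0.05. Over all genes tested, the adjusted threshold was passed by 1 gene (0.00579%), which was Uhmk1, and the unadjusted one by 6.16%. The differences of the members, KIS-ko minus wildtype, ran from -0.07 to 0.08 on the log2(signal + 16) scale, with 7 of 10 lower and a median of -0.023, beside a median of -0.036 over all genes, of which 69.8% were lower. The 2 groups overlapped in all 10 members. These log2 differences understate the change of dim genes, because 16 is added to each signal before the logarithm. At their precision, the widest 95% interval reached -0.21 downward (Trem2) and 0.21 upward (C1qb), so smaller differences than these may be missed. The intervals are not adjusted for the number of genes, and the adjusted test can miss larger differences too. The astrocyte marker Gfap, at -0.27, did not pass it (limma adjusted p = 0.685). Of the member probesets, 6 (of Aif1, P2ry12 and Itgam) had a relative standard deviation above 0.4 in a genotype and were left out, which left 101.

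Among the complement genes, C1qb ran in the wildtype brains from 10.03 through a median of 10.22 to 10.28, and in the KIS-ko brains from 9.96 through 10.15 to 10.44. The KIS-ko group held both the lowest brain (litter 2) and the 2 highest (litters 4 and 5), so that it was the wider of the groups and enclosed the wildtype brains. The difference was 0.02 (SE 0.086, limma adjusted p = 0.942), with 3 of 6 litters lower. C1qc ran from 9.07 through 9.19 to 9.29 in the wildtype and from 9.02 through 9.13 to 9.45 in the KIS-ko brains. Here too the KIS-ko brain of litter 2 was the lowest and that of litter 4 the highest, and the wildtype values lay between them. The difference was 0.01 (SE 0.077, limma adjusted p = 0.966), again with 3 of 6 litters lower. With centred arrays the differences of C1qb and C1qc were 0.07 and 0.06, and with quantile normalization 0.06 and 0.05, while without litter 4 both were -0.06. C1qa ran from 8.17 through 8.56 to 8.58 in the wildtype and from 8.30 through 8.45 to 8.62 in the KIS-ko brains. Its lowest brain was the wildtype one of litter 2, well under the other 5 wildtype brains, and the highest was the KIS-ko brain of litter 4. The difference was -0.03 (SE 0.067, limma adjusted p = 0.872), and -0.09 with only probesets matching 1 place.

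Of the receptors, Csf1r ran from 8.87 through 8.98 to 9.08 in the wildtype and from 8.77 through 8.92 to 9.03 in the KIS-ko brains. The 3 lowest brains were KIS-ko (litters 2, 6 and 5) and the 2 highest were wildtype, but the remaining 7 were mixed. The difference was -0.07 (SE 0.058, limma adjusted p = 0.699), with 4 of 6 litters lower. It shrank to -0.02 with centred arrays and with quantile normalization, to -0.04 with only probesets above the controls, to -0.05 without litter 2 and to -0.03 without litter 6. Cx3cr1 went the other way, from 8.31 through 8.44 to 8.60 in the wildtype and from 8.39 through 8.49 to 8.66 in the KIS-ko brains. It was higher in the KIS-ko littermate in 5 of 6 litters, all except litter 6, while the ranges of the groups overlapped over most of their width. The difference of 0.08 (SE 0.052, 95% interval -0.04 to 0.20) had the smallest p of the members, yet did not pass (limma adjusted p = 0.685). With arrays centred on their medians it was 0.13 and without litter 6 it was 0.12, and both passed the unadjusted threshold but not the adjusted one (limma adjusted p = 0.726 for the former). As the median over probesets instead of their mean, it was -4.9e-05. The gene value of Cx3cr1 rests on 3 probesets, and the only one with an unadjusted p under 0.05 was the one nearest the median control.

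P2ry12 ran from 8.38 through 8.64 to 8.74 in the wildtype and from 8.44 through 8.67 to 8.72 in the KIS-ko brains. Both littermates of litter 5 were the lowest of their groups, and otherwise the groups overlapped throughout. The difference was -0.0034 (SE 0.058, limma adjusted p = 0.986), the smallest in size among the members. Trem2 ran from 8.17 through 8.30 to 8.45 in the wildtype and from 8.17 through 8.22 to 8.34 in the KIS-ko brains. The 2 highest brains were wildtype (litters 4 and 3), the lowest brain was wildtype too, and the KIS-ko brains lay closer together. The difference was -0.07 (SE 0.063, limma adjusted p = 0.723). It was -0.01 with centred arrays, -0.02 with quantile normalization, -0.03 without litter 3 or litter 4, -0.11 without litter 1 and -0.18 as a median over probesets. Tyrobp, its adaptor, ran from 8.21 through 8.25 to 8.45 in the wildtype and from 8.13 through 8.22 to 8.34 in the KIS-ko brains. Litter 6 held both the highest brain, the wildtype one, and the lowest, its KIS-ko littermate. The difference was -0.05 (SE 0.058, limma adjusted p = 0.756), and without litter 6 it was 0.0020.

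For the macrophage markers, Aif1 ran from 6.99 through 7.08 to 7.18 in the wildtype and from 6.93 through 7.06 to 7.14 in the KIS-ko brains. The 2 lowest brains were KIS-ko and the highest was wildtype, with the others mixed. The difference was -0.03 (SE 0.050, limma adjusted p = 0.822). Itgam ran from 7.13 through 7.20 to 7.26 in the wildtype and from 7.07 through 7.20 to 7.25 in the KIS-ko brains. Both extremes were in litter 5, where the wildtype brain was the highest of all and its littermate the lowest. The difference was -0.02 (SE 0.050, limma adjusted p = 0.912), from -0.0504 without litter 1 to -0.0026 without litter 5. The median probeset signals of both genes, 124 and 104, lay near the median control.

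**Figure D2:**
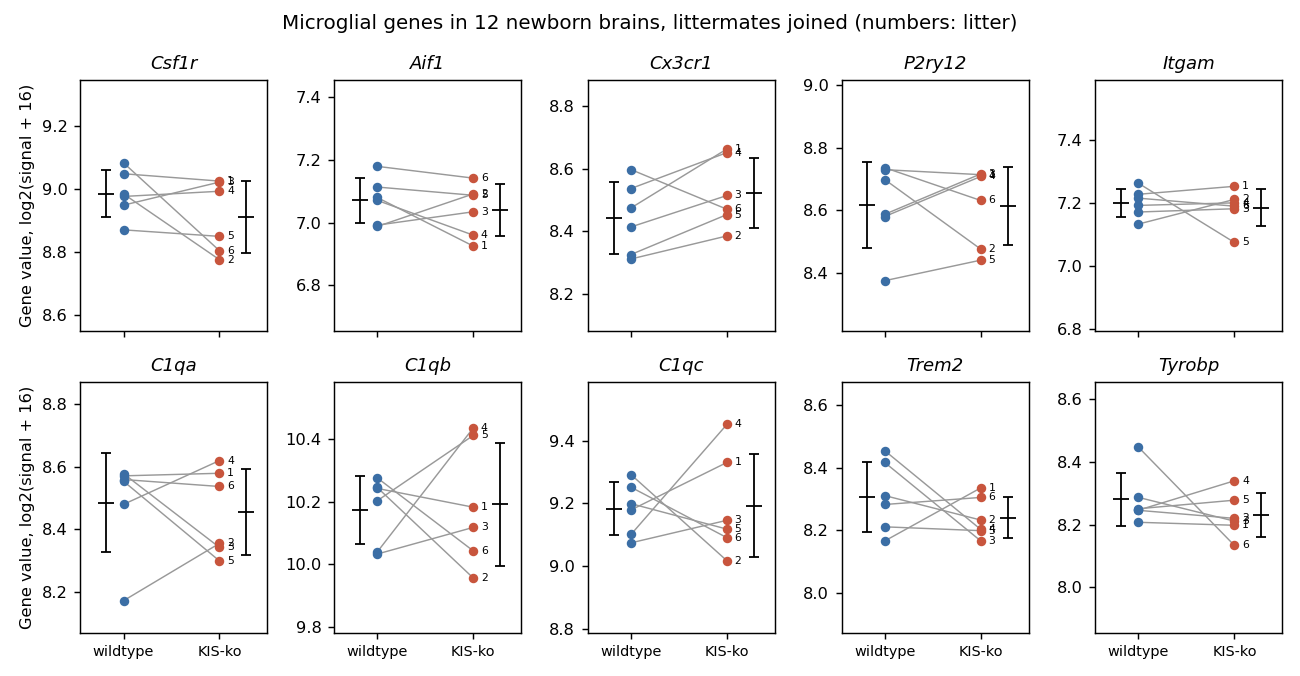
Gene value (mean of log2(signal + 16) over probesets) of each member in the 6 wildtype and 6 KIS-ko brains, with littermates joined by a line, litter numbers at the right, and the mean ± SD of each group (n = 6) beside the points. All panels have the same height on the log2 scale, and the groups overlap in all 10.

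**Figure D3:**
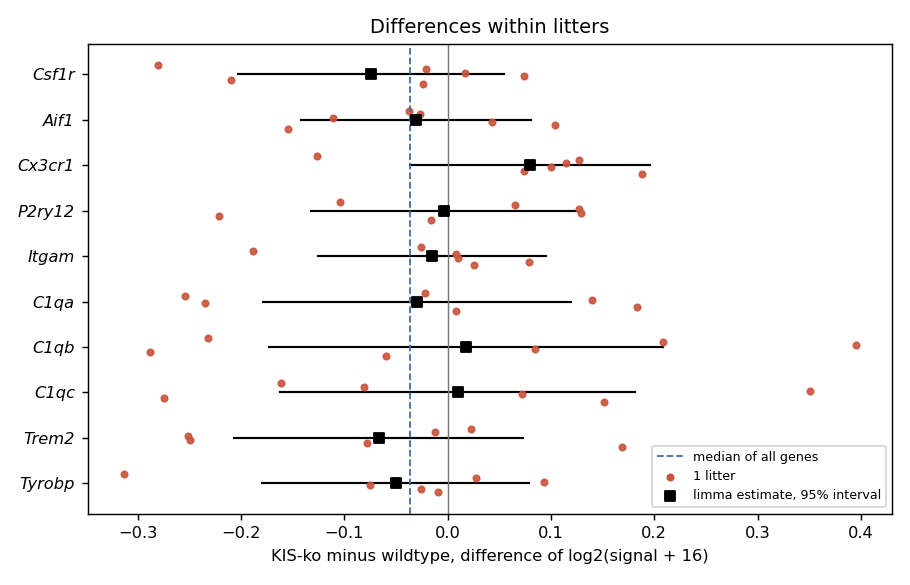
Difference of log2(signal + 16), KIS-ko minus wildtype, of each member in each of the 6 litters (points), with the limma estimate (square) and its 95% interval, which contains 0 for all 10 members. The dashed line is the median of all genes (-0.036).

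Within litters, the median of the members had the sign of the median of all genes in each of the 6 litters. The median difference of the 10 members was -0.00067, -0.05, 0.06, 0.10, -0.02 and -0.12 in litters 1 to 6, beside medians of all genes of -0.05, -0.09, 0.0023, 0.07, -0.05 and -0.11. Litter 6 had 9 of 10 members lower in the KIS-ko brain and litter 4 had 2 of 10 lower, and these were also the litters in which all genes had the lowest and the highest median. Centring the arrays on their medians moved the median difference of all genes from -0.036 to 0.018, and quantile normalization moved it to 0.0025. The number of members that were lower was then 2 and 3 of 10 in place of 7, so the number of members on each side of 0 depended on the scaling of the arrays.

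Litters could also differ from each other irrespective of genotype. By the limma F test over the litter terms, 0 of 10 members had an unadjusted p under 0.05, where 11.3% of all genes did, and 0 genes of 17279 (0%) passed after adjustment. P2ry12 had the lowest adjusted p of the members for litter, 0.567. The unadjusted threshold was passed by 1 member with the relative standard deviation filter at 0.2, as a median over probesets, without litter 2 and without litter 6.

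Single exons were tested in the same way. Of the 101 member probesets kept, 9 (8.91%) had an unadjusted limma p under 0.05, where 6.63% of all probesets did, and 0 passed after adjustment over 205469 probesets. They were 3 of Csf1r and 2 of Aif1 that were lower, 1 of Cx3cr1 that was higher, and 3 of Itgam, of which 2 were higher. The probeset with the smallest p was that of Csf1r at chr18:61276701-61276808, with a difference of -0.35 (SE 0.072, limma adjusted p = 0.640). Its PLIER signal ran from 249 to 351 in the wildtype and from 161 to 253 in the KIS-ko brains, so that the groups overlapped only slightly, at a level below the 95th percentile of controls. Another 2 of Csf1r, at chr18:61290208-61290528 and chr18:61290609-61290642 near the end of the gene, differed by -0.22 and -0.20 (limma adjusted p = 0.751 for both). The last of these was among the probesets above the intron controls on all 12 arrays. The Cx3cr1 probeset, at chr9:119977343-119977369, differed by 0.27 (limma adjusted p = 0.742) with a mean signal of 135, little above the median control.

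The third question was whether the members rose and fell together from brain to brain. Gene values were centred on the median of each array, and the 45 pairs of members were correlated over the 12 arrays with a permutation test (100000 permutations, two-sided). Pearson's r had a median of 0.10, against 0.065 over all pairs of genes, and was positive in 29 of 45 pairs, against 55.7% of all pairs. Above 0.5 lay 5 of the 45 (11.1%), where 14.8% of all gene pairs did, and 1 lay below -0.5. An unadjusted permutation p under 0.05 was found for 3 pairs (6.67%) and an adjusted one for 0, the lowest being 0.547. The weakest of the 3 had r of 0.60, a size that 13.5% of all gene pairs reached in either direction. In other settings the values over all gene pairs were not computed, so those of the members have no background there. The median r was 0.04 without litter 1, 0.07 without litter 2, 0.23 without litter 4, 0.16 (34 of 45 positive) on arrays as deposited, 0.06 with probesets matching 1 place and 0.04 as a median over probesets. The pairs with an unadjusted p under 0.05 were 6 without litter 5, 5 without litter 6, 5 with values set against the genotype mean and 0 of 6 with only probesets above the controls. Over the differences within litters (n = 6), the share of all gene pairs was not computed, so the counts of member pairs have no background. The median r was 0.02, with 23 of 45 pairs positive, 3 with an unadjusted p under 0.05 by the exact permutation test and 0 with an adjusted one. These 3 were all negative, Itgam with C1qb at -0.98 (exact permutation p = 0.00278, adjusted p = 0.125), P2ry12 with C1qa at -0.92 (exact permutation p = 0.0125, adjusted p = 0.229) and Aif1 with C1qc at -0.92 (exact permutation p = 0.0153, adjusted p = 0.229), and none of them was among the 3 pairs over the 12 brains. Littermates share their mother and litter, so that the 12 brains are not fully independent.

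C1qb and C1qc were the pair with the highest correlation. Over the 12 brains r was 0.66 (permutation p = 0.0189, adjusted p = 0.547) and Spearman's rho 0.75 (permutation p = 0.00764, adjusted p = 0.344). The KIS-ko brains of litters 4 and 5 were farthest from the median of C1qb, and without them r was 0.72. With the values of each group set against the genotype mean it was 0.63, and over the within-litter differences (n = 6) it was 0.51 (exact permutation p = 0.304). As the median over probesets, however, r was 0.18, and with probesets above the controls alone it was 0.48. Ordered by r with C1qc, C1qb stood 77th among 17278 genes, and C1qc stood 676th for C1qb, so that other genes came before each of them. C1qa, whose protein assembles with both, was correlated past the threshold with neither. To C1qb its r was -0.04 (permutation p = 0.895, adjusted p = 0.962) and rho -0.08 (permutation p = 0.800, adjusted p = 0.983). To C1qc its r was 0.08 (permutation p = 0.793, adjusted p = 0.939) and rho 0.07 (permutation p = 0.837, adjusted p = 0.983). Without the 2 brains farthest from the median of C1qa, among them the low wildtype brain of litter 2, these r were -0.20 and 0.31.

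**Figure D4:**
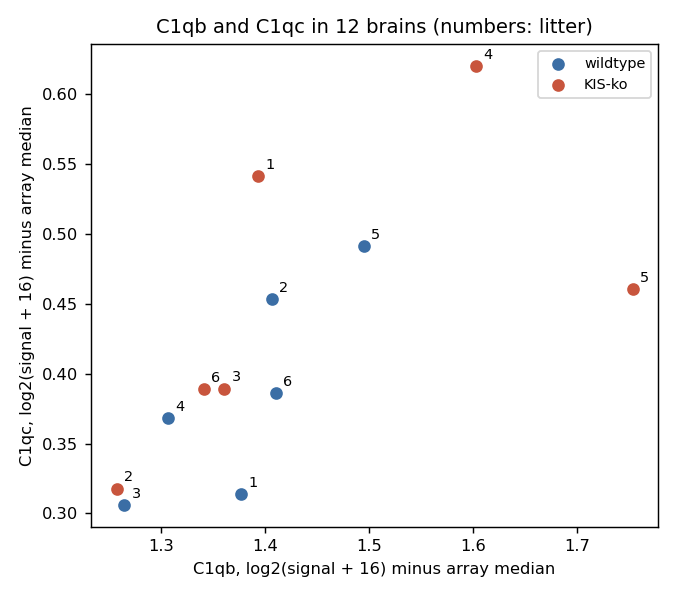
Gene values of C1qb (horizontal) and C1qc (vertical) in the 12 brains, each as log2(signal + 16) minus the median of the array, with litter numbers beside the points. The correlation (r 0.66) did not pass after adjustment (permutation test, adjusted p = 0.547), and wildtype and KIS-ko brains are intermixed.

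The other pairs with an unadjusted p under 0.05 both included Itgam. Aif1 and Itgam had r of 0.62 (permutation p = 0.0315, adjusted p = 0.547), rho of 0.56 (permutation p = 0.0624, adjusted p = 0.745), and r of 0.78 without the 2 brains farthest from the median of Aif1. On the arrays as deposited, without centring, their r was 0.03. Itgam and C1qa had r of 0.60 (permutation p = 0.0365, adjusted p = 0.547) and rho of 0.50 (permutation p = 0.102, adjusted p = 0.826), but r was 0.08 without the 2 brains farthest from the median of Itgam (the wildtype brains of litters 2 and 5). With all 12 brains it was -0.05 when only probesets matching 1 place were used and -0.03 with the relative standard deviation filter at 0.2, which leaves C1qa 1 probeset. It was 0.67 on arrays as deposited, 0.68 with quantile normalization and 0.77 over the within-litter differences (n = 6, exact permutation p = 0.0806, adjusted p = 0.625), so its size depended on the brains and probesets used. Trem2 and Tyrobp, receptor and adaptor, had r of 0.30 (permutation p = 0.349, adjusted p = 0.792) and rho of 0.23 (permutation p = 0.472, adjusted p = 0.949), with r of -0.07 without the 2 brains farthest from the median of Trem2. P2ry12 and Tyrobp were the most opposed pair, at r of -0.52 (permutation p = 0.0785, adjusted p = 0.652) and rho of -0.57 (permutation p = 0.0595, adjusted p = 0.745), with r of -0.58 without the 2 brains farthest from the median of P2ry12.

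**Figure D5:**
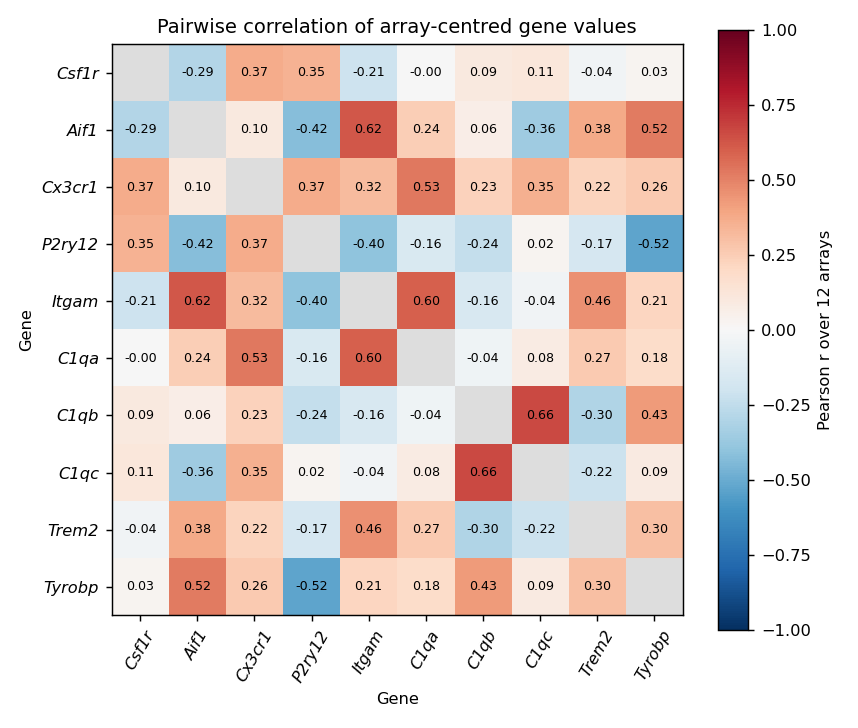
Pearson's r of array-centred gene values over the 12 arrays for each pair of the 10 members, from -1 (blue) to 1 (red). Positive values do not join all 10 members. Aif1, Cx3cr1, Itgam, C1qa, Trem2 and Tyrobp are positive with each other in every pair, from 0.10 (Aif1 and Cx3cr1) to 0.62 (Aif1 and Itgam). This group was seen in the values themselves and was not tested as a set, and no pair passed after adjustment. The highest value is that of C1qb and C1qc (0.66).

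Probesets of 1 gene give another view of how much of each value is shared signal. For C1qb the median correlation between its own probesets over the 12 arrays was 0.51, a value at the 90.4th percentile of 15572 genes, whose median was 0.23. C1qa, Trem2 and C1qc lay near that median, at 0.25, 0.26 and 0.24. Below it came Csf1r (0.12), Tyrobp (0.10), Aif1 (0.09) and Itgam (0.07). The medians of Cx3cr1 (3 probesets) and P2ry12 (5) were -0.23 and -0.32, at percentiles 0.43 and 0.19 of all genes, which does not mean that each pair of their probesets was negative. These are descriptions over probesets that share the same 12 arrays. The mean log2 signal of the intron controls of an array, which can hold unspecific signal and some pre-mRNA, was taken minus the median gene value of the array. The member values were centred on the same median, so both sides share a subtracted term. This intron level was related to no member after adjustment (10 relations, n = 12). The largest r was that of Trem2 at 0.62 (permutation p = 0.0316, adjusted p = 0.316), which fell to 0.30 without the 2 arrays farthest from the median, and its rho was 0.52 (permutation p = 0.0854, adjusted p = 0.386). For C1qb r was -0.52 (permutation p = 0.0839, adjusted p = 0.420) and rho -0.68 (permutation p = 0.0186, adjusted p = 0.186), with r of -0.66 without the 2 arrays farthest from the median. For C1qc r was -0.39 (permutation p = 0.205, adjusted p = 0.678) and rho -0.48 (permutation p = 0.116, adjusted p = 0.386), with r of -0.74 without the 2 arrays, so both genes of the highest-correlated pair were negative here. The part of unspecific signal in these relations was not tested.

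Genes that act with the members were followed in lists, none of which held a gene with a limma adjusted p under 0.05 for genotype. Among the ligands, Cx3cl1, the ligand of Cx3cr1, and Apoe, a ligand of Trem2, had median probeset signals of 1895 and 6741, above the 95th percentile of controls, whereas those of the Csf1r ligands Csf1 and Il34 were 470 and 297. For these lists the background is that 69.8% of all genes were lower in KIS-ko, with a median of -0.036, and 6.16% had an unadjusted p under 0.05, and with centred arrays 38.7% of all genes were lower. All 4 ligands were lower, with differences of -0.10 for Cx3cl1 and -0.12 for Apoe, with 0 passing the unadjusted threshold. Of 6 myeloid transcription factors 0 passed it, and Spi1, which encodes PU.1, had a median probeset signal of 198 and a difference of -0.07.

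Of 12 further genes of homeostatic microglia, 10 were lower and 2 higher, with a median of -0.026 that was less negative than that of all genes (69.8% lower, median -0.036), and P2ry13 was the one with an unadjusted p under 0.05, at -0.19 (limma adjusted p = 0.685). Olfml3, with a median probeset signal of 985, differed by -0.11. Of 16 pan-myeloid genes, 12 were lower with a median of -0.049, again beside 69.8% of all genes, and 2 had an unadjusted p under 0.05: Cybb, a subunit of the phagocyte oxidase, at -0.15 and the lipopolysaccharide co-receptor Cd14 at 0.22 (limma adjusted p = 0.685 for both). Cybb and Cd14 had median probeset signals of 127 and 157, little above the median control. Of 8 complement partners 0 passed the unadjusted threshold, and C3ar1, a receptor of the complement fragment C3a, differed by -0.16. Among 6 genes of the signalling below Trem2 and Tyrobp, Btk passed it at -0.10 (limma adjusted p = 0.685) with a median probeset signal of 40.5, under the median control, and Inpp5d differed by -0.07. Among 8 genes of the amoeboid microglia of the early postnatal brain, Igf1, which other brain cells also make, passed it at -0.12 (limma adjusted p = 0.685), lower in 6 of 6 litters, while Clec7a differed by 0.06. Of 10 inflammatory genes 0 passed it, Ccl3 differing by -0.14 and Il6 by -0.10.

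Several members are also made by other myeloid and blood cells, whose markers were therefore listed. Border macrophages, which line vessels and meninges and share Csf1r and the C1q genes with microglia, had 0 of 8 genes past the unadjusted threshold. Of their median probesets, 0 of 8 lay above the 95th percentile of controls and 7 of 8 above the median control. Of the 10 members, 2 lay above the former and 9 above the latter. The mean gene value of the border macrophage markers ran from 8.02 to 8.31 in the wildtype and from 7.88 to 8.30 in the KIS-ko brains. Their largest differences were -0.08 for Cbr2 and -0.08 for F13a1. The markers of monocytes (4 genes), neutrophils (8), erythroid cells (7) and lymphocytes (5) had 0 median probesets above the 95th percentile, and 1, 3, 3 and 1 of them above the median control. Ly6c2 of the monocytes passed the unadjusted threshold at -0.13 (limma adjusted p = 0.685), with a median probeset signal of 89.1, under the median control. Ccr2 differed by 0.10 at a median probeset signal of 12.2. The others with the largest differences were Mpo (-0.09) and Ltf (0.07), Epb42 (0.06) and Alas2 (-0.05), and Ms4a1 (0.13) and Cd3g (0.11), with none past it. The part of these cells in the values of the members was not tested.

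The neuronal markers, which check the tissue label, had 5 of 5 median probesets above the 95th percentile, Syt1 and Stmn2 differing by -0.07 and -0.05. Of 4 astrocyte markers, 3 median probesets lay above it. Gfap, the filament protein of astrocytes, passed the unadjusted threshold at -0.27 (limma adjusted p = 0.685) and Aldh1l1 differed by -0.10. In endothelium, 2 of 5 lay above it, Cldn5 differing by -0.11 and Flt1 by 0.09.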

How the data were processed

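RNA of 12 whole brains was hybridized to exon arrays (Affymetrix Mouse Exon 1.0 ST). The authors processed them in the Affymetrix Expression Console by quantile normalization of exons and PLIER (versions not given in the sources used here), and the deposited intensity of a probeset is its PLIER signal, not on a log scale. As the study's methods state, probesets whose relative standard deviation exceeded 0.4 in 1 or both genotypes were left out. Gene values were means over main probesets of log2(signal + 16). Differences were fitted in R 4.3.3 by limma 3.58.1 with the litter, given by the labels, as a blocking term, and p-values were adjusted by Benjamini-Hochberg over all genes or probesets. The deviations of littermates from the genotype means correlated at 0.27, -0.06, 0.14, -0.11, 0.47 and -0.11 in litters 1 to 6. Python 3.11.15 with pandas 2.3.3 and scipy 1.17.1 served for the correlations. Scripts were tested on simulated data. The members and the lists were chosen with earlier results of these data known. Named from the lists were the genes with an unadjusted p under 0.05 for genotype and the 2 of largest difference in each, of which 2 genes are not reported here. Alternatives were other pseudocounts (1, 64), filters, probeset sets, scalings and moderation, no block, and each litter left out. Added after the data were seen were the relation to intron controls and the background share of probesets. Precision is limited by the number of arrays and by how far signals exceed background.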

Additional observations from a re-analysis of the deposited data

Results flagged for a closer look

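In 2 of the 20 groups of 6 brains (10 members in 2 genotypes), 1 brain stood far from the others by Dixon's ratio of gap to range, which chance alone gives in about 1 group in 20. C1qa in the wildtype brain of litter 2 was low at 8.17, the next wildtype brain being at 8.48 (gap over range 0.758). Tyrobp in the wildtype brain of litter 6 was high at 8.45, the next being at 8.29 (gap over range 0.669).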

How the results depend on the processing

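No member passed the adjusted threshold for genotype under any alternative run, and no pair of members did for correlation. The count of genes past the threshold was 1 and became 2 with a pseudocount of 64, 2 without the relative SD filter, 5 with that filter at 0.2, 5 with only probesets above the controls (which leaves Csf1r, C1qb, C1qc and Tyrobp among the members) and 2 with trend and robust moderation. Leaving out a litter gave 1 to 4 genes. The count of probesets was 10 and became 23 with a pseudocount of 64, 16 with centred arrays and 26 without the replicate block, and 9 to 15 with a litter left out. Genes that differed between litters were 0, and 29 with a pseudocount of 64, 281 with only probesets above the controls and 168 with trend and robust moderation. Detected probesets of members were 15 at the 95th percentile of controls, 34 at the 90th, 0 at the 99th and 9 when required on all 12 arrays. At an unadjusted p under 0.05, the number of genes ran from 579 without litter 6 to 4017 without litter 4. The cause of these shifts was not tested.

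Directions of the members turned in several settings, none of them past the threshold, and some turned values exceeded the main value in size. With the filter at 0.2 the difference was 0.0143 for Aif1, 0.0466 for P2ry12, 0.0158 for Itgam and -5.7e-04 for C1qb. With centred arrays it was 0.0392 for Aif1, 0.0516 for P2ry12, 0.0345 for Itgam, 0.0245 for C1qa and 0.0029 for Tyrobp, and with quantile normalization 0.0258 for Aif1, 0.0497 for P2ry12, 0.0219 for Itgam and 0.0212 for C1qa. As a median over probesets it was -4.9e-05 for Cx3cr1, 0.0079 for P2ry12, -0.0048 for C1qc and 0.0091 for Tyrobp. Leaving out a litter gave -0.0485 to 0.0325 for Aif1, -0.0709 to 0.0403 for P2ry12, -0.0727 to 0.0147 for C1qa, -0.0575 to 0.0792 for C1qb, -0.0587 to 0.0664 for C1qc and -0.0793 to 0.0020 for Tyrobp. The r of Itgam and C1qa was -0.0314 with the filter at 0.2 and -0.0518 with probesets matching 1 place only. Trem2 passed the unadjusted threshold as a median over probesets (-0.18, limma adjusted p = 0.782), and Cx3cr1 did with the filter at 0.2 (0.12) and with quantile normalization (0.13).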

Other observations

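The 10 genes whose values were most like the mean standardized value of C1qb and C1qc over the 12 arrays were Stard3 (r 0.91), Rela (0.87), Slc35c1 (0.86), Zfp358 (0.86), Kctd13 (0.86), Tada3 (0.85), Ubl5 (0.85), Wbp2 (0.85), Rxra (0.85) and Igfbp3 (0.84). None of them is in a list of microglial or other cell type genes followed here. They are the extreme of 17279 genes over 12 arrays, and no test was run. The 28 homeostatic microglial and pan-myeloid genes had a median r of 0.03 to the same mean value, against 0.01 over all genes.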
